A study of Mus musculus with 19 samples.

Results

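The genes described here are 7 genes used to recognise or known to maintain hematopoietic stem cells: Tek, Procr, Cd34, Esam, Gata2, Mecom and Hlf. They were found by name in the deposited table of estimated counts, and all 7 were among its 23458 gene names. RNA was measured by polyA RNA-seq in 17 libraries of C57BL/6 mouse cells. All 7 passed the filter on low counts, 3 of them (Tek, Mecom and Hlf) with at most 27 counts in any retroviral library. The Mecom row passed the filter through KI-pre alone (60 of its 61 counts), so its calls against KI-pre are given as values and support nothing on their own.

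Hematopoietic stem cells sit at the top of blood formation and are carried by a small set of surface receptors and transcription factors. Tek encodes TIE2, the receptor for angiopoietins, which is found on stem cells and on endothelium. Procr encodes the endothelial protein C receptor (EPCR), Cd34 a sialomucin of progenitor cells and vessels, and Esam a junctional adhesion molecule of the same cells. Gata2, Mecom (which encodes EVI1) and Hlf encode transcription factors needed for the upkeep of stem cells in the mouse, and Gata2 is also used by mast cells and early megakaryocytes. Differentiated thymocytes and neutrophils are not known for expressing these genes.

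The libraries come from a pair of mouse leukemia models that use FLT3-ITD, a form of the kinase FLT3 with part of its sequence repeated in tandem. In the knock-in model, every mouse carried the duplication on 1 Flt3 allele (Flt3+/ITD), and marrow was collected in bulk, with no surface marker given. KI-KO is 1 leukemia of genotype ER-cre+;Dnmt3a f/f;Flt3+/ITD, where f is a floxed allele of the de novo DNA methyltransferase gene Dnmt3a. KI-het holds 2 leukemias of genotype ER-cre+;Dnmt3a f/+;Flt3+/ITD. KI-pre holds 3 pre-leukemic libraries of genotype ER-cre-;Dnmt3a f/f;Flt3+/ITD, which carry floxed Dnmt3a but no Cre. In the retroviral model, Mx1-cre+ donor marrow was transduced with a virus and transplanted into lethally irradiated recipients, and CD4+CD8+ cells of donor origin were sorted. KO-ITD is Dnmt3a f/f with MSCV_FLT3-ITD-GFP (4 leukemias), WT-ITD is Dnmt3a+/+ with the same virus (3 leukemias), KO-GFP is Dnmt3a f/f with MSCV_GFP (2 libraries) and WT-GFP is Dnmt3a+/+ with MSCV_GFP (2 libraries). Mx1-cre and ER-cre are inducible deleters and not restricted to T cells or stem cells. KO-ITD replicates 1 and 2 and WT-ITD replicate 2 came from marrow, and thymus gave the other retroviral libraries. The knock-in libraries and KO-ITD replicates 3 and 4 were submitted later than the rest. The labels do not give ages or tie replicates to single animals, so the p-values speak of the spread among libraries, which may be technical.

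Library totals ran from 4933890 to 25331908 estimated counts. Dnmt3a, the targeted gene, was at 36.5 CPM (counts scaled to 1000000 per library) in KI-KO, 55.0 and 47.4 CPM in KI-het and 130 to 153 CPM in KI-pre. In the retroviral model it was at 53.0 to 127 CPM in KO-ITD against 180 to 238 CPM in WT-ITD, and at 207 and 144 CPM in KO-GFP against 257 and 250 CPM in WT-GFP. Of the sorted markers, Cd4 was at 183 CPM or more, Cd8a at 234 CPM or more and Cd8b1 at 89.8 CPM or more in all 11 retroviral libraries. Of 12 markers of double-positive thymocytes, 7 (Cd4, Cd8a and Cd8b1 among them) were called lower and 1 higher in KO-ITD than in KO-GFP. Of all genes, 9.85% were called lower and 9.8% higher there. The 12 markers summed to 3780 to 9450 CPM in KO-ITD against 15500 and 17800 CPM in KO-GFP. KI-pre did not show the profile of mature marrow. Ngp and Ltf, granule genes of maturing neutrophils, were at 33.7 to 85.6 and 15.7 to 56.0 CPM in KI-pre, and at 515 to 3300 and 330 to 2420 CPM in the 3 knock-in leukemias. Kit, the receptor of stem and progenitor cells, was at 533 to 718 CPM in KI-pre and at 31.0 to 158 CPM in the leukemias. The part of this difference in cell makeup in the results was not tested, and in bulk libraries fewer cells of a type and less RNA per cell cannot be told apart.

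Mecom needs its gene structure to be read. The deposited mm9 gene models place its transcripts at separate loci on the minus strand of chromosome 3. A 15-exon transcript spans chr3:29850218-29912126, and a 3-exon transcript, from the upstream start known as Mds1, spans chr3:30135491-30408409. The Mecom row of the gene table equals the 3-exon transcript alone, so most Mecom reads are outside it. No deposited model joins both, and reads of a joined transcript could be assigned to either. The gene row and the sum of both transcripts are given side by side below. The 250 bases before each Mecom start and before the start of Tek are shown because these genes were low in all 3 knock-in leukemias. They were taken from RefSeq on GRCm38.p6 (a build other than the mm9 of the files), in gene orientation, with motif matches in capitals.
Mecom upstream start, chr3:30509760-30510009, minus strand: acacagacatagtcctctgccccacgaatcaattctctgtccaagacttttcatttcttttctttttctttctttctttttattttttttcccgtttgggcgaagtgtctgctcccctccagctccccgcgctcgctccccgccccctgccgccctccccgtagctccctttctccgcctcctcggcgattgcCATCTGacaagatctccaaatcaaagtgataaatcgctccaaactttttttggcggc
Mecom downstream start, chr3:30013205-30013454, minus strand: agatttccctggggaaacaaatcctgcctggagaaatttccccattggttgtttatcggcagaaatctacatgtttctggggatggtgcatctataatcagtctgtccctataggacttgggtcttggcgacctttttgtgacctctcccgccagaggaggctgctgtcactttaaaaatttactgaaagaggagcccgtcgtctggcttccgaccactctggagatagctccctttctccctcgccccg
Tek, chr4:94739039-94739288, plus strand: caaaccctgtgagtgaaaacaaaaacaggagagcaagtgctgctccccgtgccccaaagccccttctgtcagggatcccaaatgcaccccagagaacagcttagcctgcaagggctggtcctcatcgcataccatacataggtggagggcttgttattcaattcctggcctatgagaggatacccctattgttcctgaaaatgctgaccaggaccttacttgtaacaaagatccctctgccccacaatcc
The motif AGATAA, bound by GATA factors, was searched on both strands. So was AGGAAG, a core of ETS factor sites. The last motif searched, likewise on both strands, was the E-box CAGATG. Only these exact letters were searched, so variant forms of the sites were not counted and may be present. The windows above held 1 exact match, the E-box on the opposite strand (CATCTG), before the upstream Mecom start. RefSeq windows were found for 6 of the 7 genes, 8 windows in all, and the only other match was 1 ETS motif before Cd34. Of 32851 mouse windows of this length, 9.99% held the GATA motif, 29.5% the ETS motif and 14.4% the E-box.

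**Figure D1:**
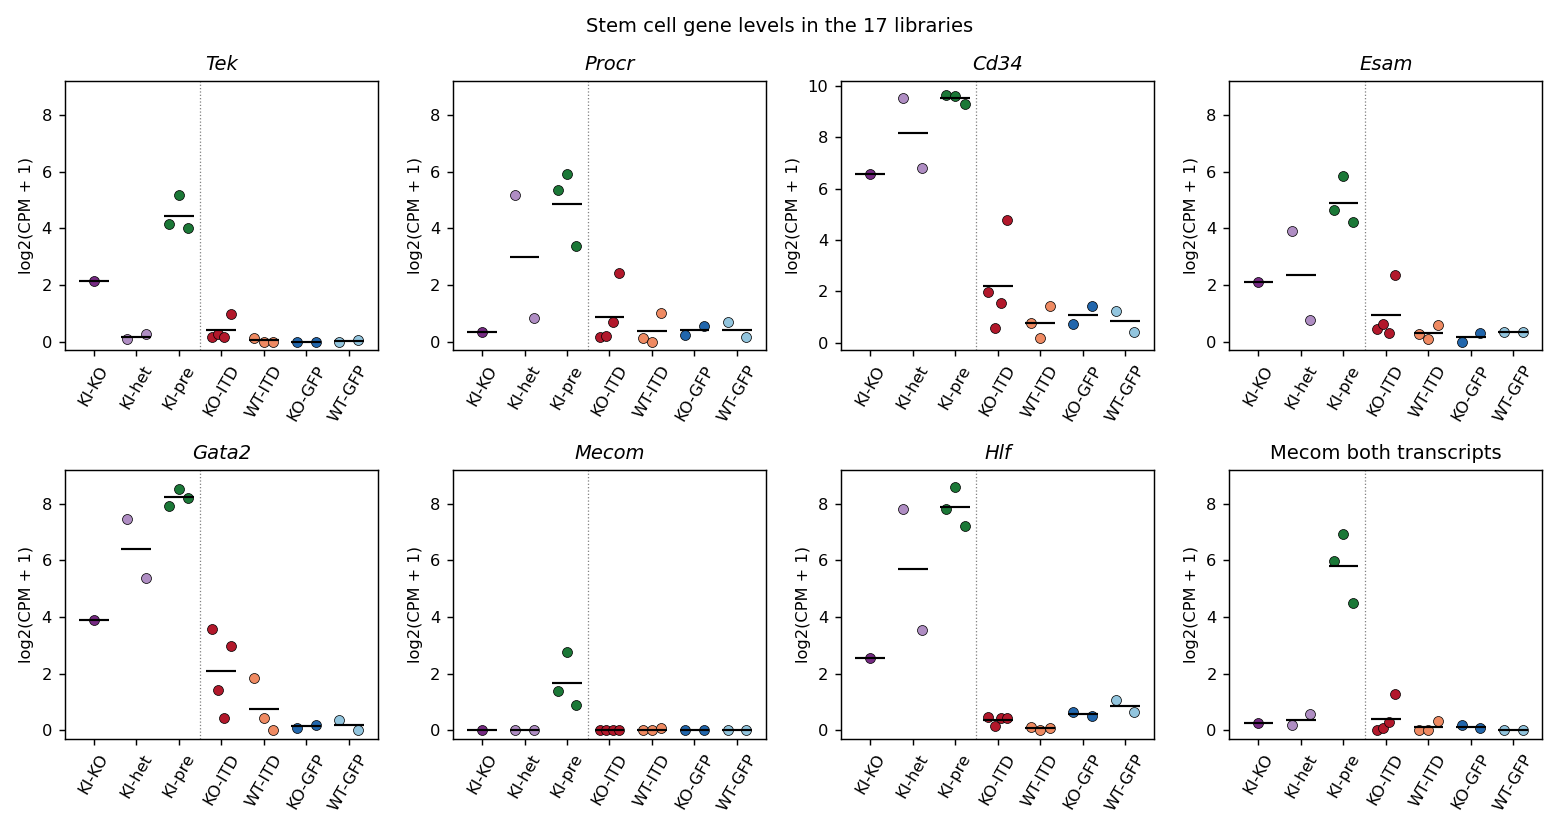
Level of each gene as log2(CPM + 1) in the 17 libraries, by group, with 1 point per library and a bar at the group mean; the Cd34 panel has a taller axis, and the last panel sums both Mecom transcripts. All 7 genes were high in the 3 KI-pre libraries, and KI-het replicates 1 and 2 lay far apart for every gene but Tek and Mecom.

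All 7 genes had their highest group mean in KI-pre. Per kilobase of exon, the KI-pre level was 282 ± 33.9 CPM per kb for Cd34, 93.0 ± 19.6 for Gata2, 44.5 ± 21.1 for Hlf, 23.9 ± 16.5 for Procr, 17.6 ± 11.3 for Esam, 12.4 ± 9.03 for both Mecom transcripts and 4.82 ± 2.36 for Tek (SD, n = 3). Within each of the 3 libraries the genes kept this order, except that Esam (9.48) lay above Procr (6.28) in KI-pre replicate 3. Across libraries, the range of each gene from Hlf down to Tek overlapped that of its neighbour. Against WT-GFP thymocytes, all 7 were called higher in KI-pre by the quasi-likelihood test of edgeR (Benjamini-Hochberg adjustment, threshold 0.05) (adjusted p of 0.000399 for Hlf to 0.0362 for Procr), Mecom having passed the filter only through KI-pre, where 15.1% of all 15508 genes tested were called higher. The log2 fold change was 9.76 ± 1.89 for Cd34, 10.99 ± 1.96 for Gata2 and 8.24 ± 1.21 for Hlf (SE). Without WT-GFP replicate 1 the count fell to 4, and likewise without WT-GFP replicate 2, with Procr, Esam and Mecom lost each time, and Procr was also lost without KI-pre replicate 1 or 2 (adjusted p 0.0657 and 0.0758). Of 50 other stem and progenitor genes tested, 36 were called higher and 1 lower (Slamf1) in KI-pre than in WT-GFP. Among the 36, Nkx2-3 passed the filter only through KI-pre, as Mecom did. Meis1, a homeobox gene of stem cells, averaged 206 ± 73.0 CPM in KI-pre (n = 3) and 0.121 ± 0.0559 CPM in WT-GFP (n = 2), and Etv6, an ETS factor gene, averaged 596 ± 64.7 and 57.2 ± 1.52 CPM in the same groups (adjusted p 0.0002 and 9.53e-05). Of 23 ligands and partners of the 7 gene products, 13 were higher and none lower. Model, tissue, sort and submission all differ between these groups and cannot be told apart.

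Every knock-in leukemia carried ER-cre with floxed Dnmt3a, and every KI-pre library lacked Cre. In all comparisons of these leukemias with KI-pre, disease stage, Cre and Dnmt3a loss therefore cannot be told apart. Inside the knock-in model, the receptor gene Tek was low in all 3 leukemias. It lies at chr4:94405991-94541630 on the plus strand of mm9 (the exons and introns of 1 model of 23 exons). Tek was at 3.43 CPM in KI-KO and at 0.06 and 0.21 CPM in KI-het replicates 1 and 2, against 16.9, 35.1 and 15.3 CPM in KI-pre. The 3 leukemias lay below all 3 KI-pre libraries. As a share of the KI-pre mean, Tek was at 15.3% in KI-KO, 0.286% in KI-het replicate 1 and 0.958% in KI-het replicate 2. Tek was called lower in KI-het than in KI-pre (log2 fold change -7.26 ± 1.40, edgeR adjusted p 0.0207). It was the only one of the 7 genes called in that comparison, in which 1.57% of all genes were called lower. The call is narrow. Leaving out any 1 of the 5 libraries gave adjusted p-values of 0.0523 to 0.0812, with log2 fold changes of -8.28 to -6.65.

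In KI-KO, a single library, Tek was not called lower than in KI-pre (log2 fold change -2.70 ± 1.44, edgeR adjusted p 0.315). Cdh5 and Kdr, defining genes of endothelium, which also expresses Tek, stood at 9.22 and 7.29 CPM in KI-KO, at 1.60 and 0.449 CPM in KI-het replicate 1, at 1.36 and 0.215 CPM in KI-het replicate 2, and at 0.189 to 0.533 and 1.36 to 7.16 CPM in KI-pre. The highest Cdh5 of the knock-in model thus lay in the leukemia with the highest Tek, while Cdh5 was near 0 in KI-pre, where Tek was highest. Pecam1, another listed endothelial marker, did not share this pattern. It was at 74.6 CPM in KI-KO, 79.4 and 57.5 CPM in KI-het replicates 1 and 2, and 98.0 to 113 CPM in KI-pre. The summed level of all 22 endothelial markers, some of them shared with stem cells and megakaryocytes, was 244 CPM in KI-KO, 134 and 458 CPM in KI-het and 919 to 1440 CPM in KI-pre.

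Mecom was also low in all 3 leukemias, in another order than Tek. Its gene row had no count in KI-KO or in either KI-het library, against 9, 31 and 20 counts (1.60, 5.85 and 0.85 CPM) in KI-pre. Summed over both transcripts, Mecom was at 0.21 CPM in KI-KO and at 0.13 and 0.50 CPM in KI-het, against 61.7, 120 and 21.8 CPM in KI-pre. The leukemias were thus at 0.189% to 0.737% of the KI-pre mean for the sum. On the gene row, with each group at 0 set to 3 counts in all, Mecom was at least 17.2-fold lower in KI-het and at least 10.8-fold lower in KI-KO than in KI-pre, without passing the threshold (edgeR adjusted p 0.0699 and 0.166). With both transcripts summed, the fall in KI-het passed it (log2 fold change -7.73, edgeR adjusted p 0.0303), and the difference in KI-KO had a log2 value of -8.25 with an adjusted p of 0.0918.

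**Figure D2:**
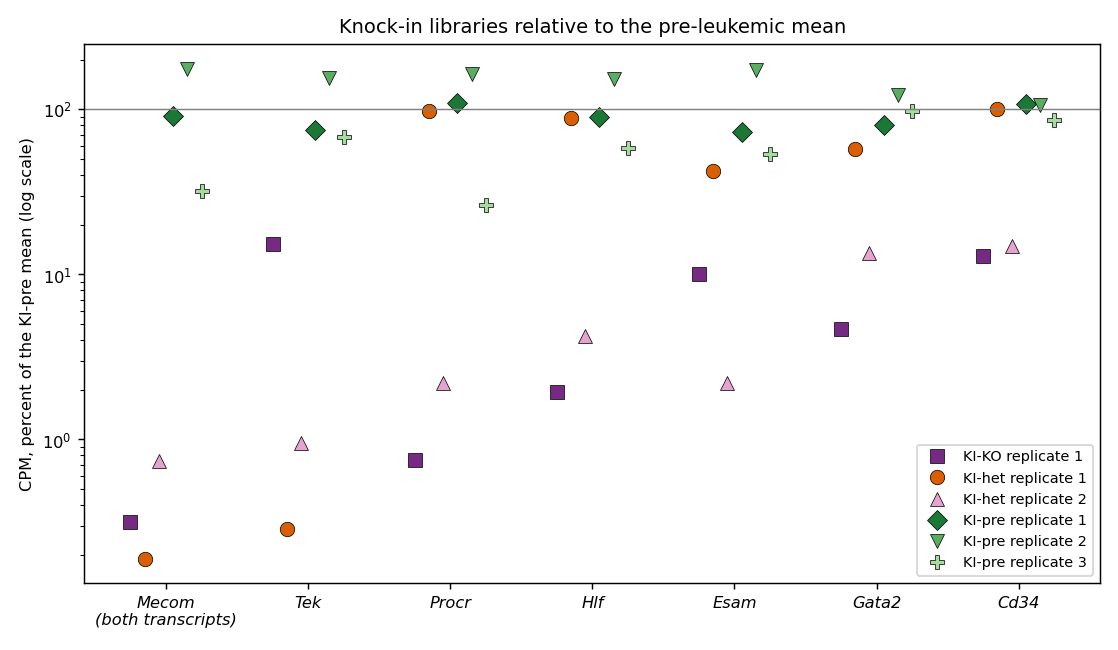
CPM of each gene in the 6 knock-in libraries as a percentage of the KI-pre mean, on a log scale; the line marks 100%. Mecom and Tek lay low in all 3 leukemias, whereas for the other 5 genes KI-het replicate 1 stood at 42.5% to 101% and KI-KO and KI-het replicate 2 stood at 0.746% to 14.9%.

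The transcription factor gene Hlf (chr11:90197849-90252231, minus strand) separated the leukemias from each other. Hlf was at 4.88 CPM in KI-KO and at 225 and 10.7 CPM in KI-het replicates 1 and 2, against 227, 382 and 147 CPM in KI-pre. KI-het replicate 1 lay within the KI-pre range and the other 2 leukemias lay far below it. The log2 fold change was -5.69 ± 1.46 in KI-KO (edgeR adjusted p 0.0535) and -1.09 ± 0.83 in KI-het (adjusted p 0.443). The KI-het value rests on which leukemia is in it. It was -0.16 without replicate 2 (adjusted p 0.918) and -4.55 without replicate 1 (adjusted p 0.00529), each time for 1 library whose spread was taken from the other groups.

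Procr (chr2:155576953-155581214, plus strand), the gene of the EPCR receptor, was at 0.27 CPM in KI-KO and at 35.01 and 0.79 CPM in KI-het, against 39.5, 58.8 and 9.45 CPM in KI-pre. Cd34 (chr1:196765015-196787486, plus strand) was at 95.2 CPM in KI-KO and at 747 and 110 CPM in KI-het, against 797, 785 and 638 CPM in KI-pre. For both genes KI-het replicate 1 was again inside the KI-pre range, while KI-KO and KI-het replicate 2 were below it. Esam (chr9:37335674-37345904, plus strand) was at 3.27 CPM in KI-KO and at 13.9 and 0.72 CPM in KI-het, against 24.0, 56.6 and 17.6 CPM in KI-pre. Gata2 (chr6:88148658-88157026, plus strand) was at 13.99 CPM in KI-KO and at 174 and 40.5 CPM in KI-het, against 242, 368 and 295 CPM in KI-pre. For Esam and Gata2 all 3 leukemias lay below all KI-pre libraries, with KI-het replicate 1 the nearest to them. None of these 4 genes was called in KI-het (log2 fold changes of -2.16 to -0.79, edgeR adjusted p 0.355 to 0.753) or in KI-KO (log2 fold changes of -7.02 to -2.96, adjusted p 0.204 to 0.377).

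None of the 7 genes was called in KI-KO against KI-pre by edgeR, where 0.903% of all genes were called lower, although 4 had an unadjusted p under 0.05. The comparison rests on 1 leukemia and borrows its spread from the other groups. With the KI-KO and KI-pre libraries fitted alone, 6 of the 7 were called lower (all but Mecom), but so were 11.5% of all genes. With limma voom 3 were called lower (Cd34, Gata2 and Mecom) beside 1.76% of all genes, and with DESeq2 2 (Procr and Hlf) beside 6.04%. DESeq2 gave Cd34 no adjusted p-value, so it could not call that gene.

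The 3 knock-in leukemias were also set together against KI-pre, a comparison added after the levels had been seen. Tek (log2 fold change -5.74 ± 1.08, adjusted p 0.0119), Mecom (at least 28.0-fold lower, adjusted p 0.0328) and Hlf (-2.63 ± 0.76, adjusted p 0.0482) were called lower by edgeR, against 4.09% of all genes. For Mecom that direction was fixed by the filter, since KI-pre alone carried the row through it. DESeq2 did not call Mecom (adjusted p 0.216), and Hlf was not called without the filter (0.0502). The median log2 fold change was -2.63 over the 7 genes and 0.00 over all genes tested. Procr, Cd34, Esam and Gata2 had log2 fold changes of -3.01 to -1.51 and adjusted p-values of 0.146 to 0.385. Tek was not called without KI-pre replicate 2 (adjusted p 0.0553). Hlf was not called without KI-pre replicate 1, 2 or 3 (0.0769 to 0.158), nor Mecom without any 1 of KI-het replicates 1 and 2 and KI-pre replicates 1, 2 and 3 (0.0527 to 0.0962).

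Markers of other cells moved with these groups. The 12 granulocyte markers summed to 15800 CPM in KI-KO, 3850 and 20300 CPM in KI-het and 3040 to 4700 CPM in KI-pre. The sum of KI-het replicate 1 lay in the KI-pre range, but single markers did not. Its Mpo, an early granule gene, was at 967 CPM, against 2030 to 3190 CPM in KI-pre, and its Ngp and Ltf were at 515 and 330 CPM, above every KI-pre library. The monocyte and macrophage markers summed to 3250 CPM in KI-KO, 663 and 2530 CPM in KI-het and 219 to 458 CPM in KI-pre. The 15 megakaryocyte and platelet markers summed to 238 CPM in KI-KO, 164 and 153 CPM in KI-het and 437 to 650 CPM in KI-pre. Mast cell and basophil markers summed to 183 CPM in KI-KO, 47.5 and 180 CPM in KI-het and 141 to 560 CPM in KI-pre. The part of these cells in the levels of the stem cell genes was not tested.

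Cd34 is spliced into a full-length form and a form with a shorter cytoplasmic tail. The deposited models hold 1 transcript with a coding length of 1146 bases and another with 975 bases, from the same chr1 span. The longer coding transcript made up 68.5% of the Cd34 estimated count in KI-KO and 74.8% and 78.8% in KI-het, against 61.6%, 63.7% and 61.6% in KI-pre. All 3 leukemias lay above all 3 KI-pre libraries, by 11.7 percentage points on average (74.0 ± 5.17% against 62.3 ± 1.23%, SD, n = 3 each). An exact two-sided permutation test gave p = 0.1, the smallest value that 3 against 3 libraries can give. The split of reads between the transcripts is the authors' estimate. Among the retroviral libraries, KO-ITD replicate 4 had a share of 77.8% of 217 counts. The other 10 had 2 to 34 Cd34 counts, too few to read their shares of 0.0% to 100%.

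**Figure D3:**
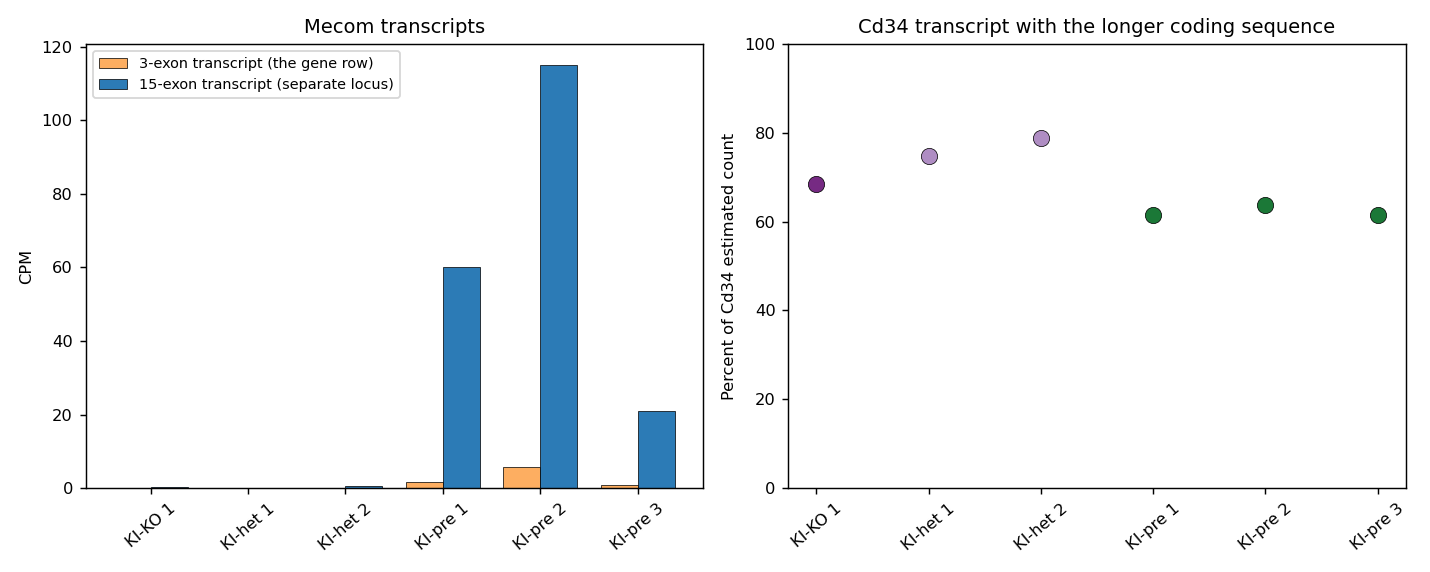
Left, CPM of the Mecom transcripts in the 6 knock-in libraries; right, percentage of the Cd34 estimated count in the transcript with the longer coding sequence. Nearly all Mecom signal in KI-pre came from the 15-exon transcript (60.1, 115 and 20.9 CPM), and the Cd34 share was 68.5% to 78.8% in the leukemias and 61.6% to 63.7% in KI-pre.

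Of the other genes of stem and progenitor cells, a list of 52, 50 were tested. By edgeR 11 of them were called lower and none higher in the 3 knock-in leukemias together, where 4.09% of all genes were called lower. Among the 11, Nkx2-3 was at 4.55 to 36.0 CPM in KI-pre and at most 0.358 CPM in any other library. Nkx2-3 thus passed the filter on low counts through KI-pre alone, which fixed its direction. In KI-het alone 4 were lower (1.57% of all genes) and none higher, and in KI-KO 2 were lower (0.903% of all genes) and none higher. The median log2 fold change of the 50 genes was -1.57 for the leukemias together, -0.81 for KI-het and -2.94 for KI-KO, beside 0.00, 0.05 and -0.05 over all genes. Slamf1, the gene of the SLAM receptor CD150 used to isolate stem cells, fell to 0.711 ± 0.367 CPM in the leukemias, against 23.8 ± 14.1 CPM in KI-pre (n = 3 each, log2 fold change -5.15 ± 0.49, adjusted p 0.000368). Gpr56, an adhesion receptor gene of stem cells, averaged 370 ± 411 CPM in the leukemias and 1950 ± 536 CPM in KI-pre (-2.73 ± 0.50, adjusted p 0.0095). Mllt3, the gene of a chromatin reader, averaged 18.6 ± 13.6 CPM in the leukemias and 88.0 ± 38.9 CPM in KI-pre (-2.30 ± 0.47, adjusted p 0.0137). In KI-het alone, Runx1 (-1.45 ± 0.32, adjusted p 0.0268) and Hmga2 (-6.02 ± 1.31, adjusted p 0.0301) were lower than in KI-pre, as was Slamf1.

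The leukemias differed over the list. Of the 50 genes, KI-het replicate 1 had the highest level of the 3 leukemias for 35 and the lowest for 9. It lay below every KI-pre library for 23 genes, against 42 for KI-KO and 42 for KI-het replicate 2. Kit and Runx1 were among the 9, at 31.0 and 67.7 CPM in KI-het replicate 1, 152 and 163 CPM in KI-KO and 158 and 120 CPM in KI-het replicate 2. Slamf1 was low in all 3, at 1.13 CPM in KI-KO and 0.577 and 0.429 CPM in KI-het, against 13.1 to 39.8 CPM in KI-pre. Gpr56 was at 843 CPM in KI-het replicate 1 and at 99.8 and 168 CPM in KI-KO and KI-het replicate 2, against 1475 to 2531 CPM in KI-pre. Meis1 and Prdm16, like Kit, were picked after their values were seen. Meis1 was at 139 CPM in KI-het replicate 1 and at 6.06 and 9.30 CPM in KI-KO and KI-het replicate 2, against 158 to 290 CPM in KI-pre, and Prdm16, a relative of Mecom, was at 75.5, 0.590 and 0.501 CPM in the same leukemias, against 8.68 to 52.8 CPM in KI-pre.

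Among 25 ligands and partners of the 7 gene products, 23 were tested, and 5 were called lower and 1 higher in the knock-in leukemias together, beside 4.09% and 5.29% of all genes. The median log2 fold change of this list was -0.98, beside 0.00 over all genes. Angpt1, which encodes the main activating ligand of TIE2, averaged 55.1 ± 67.6 CPM in the leukemias and 423 ± 122 CPM in KI-pre (log2 fold change -3.34 ± 0.76, edgeR adjusted p 0.0208). Ligand and receptor did not track each other in KI-het replicate 1, where Angpt1 was at 133 CPM and Tek at 0.06 CPM. Zfpm1, the gene of the GATA cofactor FOG1, fell by 2.62 ± 0.60 on the log2 scale (adjusted p 0.0218), and Runx1, a transcription factor gene of stem cells, fell by 1.18 ± 0.27 (adjusted p 0.0227). The gene that rose was Nfil3, whose product binds the same kind of PAR-type sites as HLF. Nfil3 averaged 73.0 ± 24.0 CPM in the leukemias and 14 ± 3.11 CPM in KI-pre (log2 fold change 2.37 ± 0.31, adjusted p 0.00258), and it was called higher in KI-KO (2.64 ± 0.38, adjusted p 0.00809) and in KI-het (2.24 ± 0.33, adjusted p 0.00843) alike. Dbp and Tef, the other PAR family members of the list, were not called.

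In the 11 retroviral libraries the 7 genes were near the detection limit, with median levels over the 11 libraries of 0.00 CPM for Mecom to 1.36 CPM for Cd34. Tek had 0 to 8 counts and was at 0 in 5 libraries, and the Mecom gene row had 1 count in all 11. The order of the group means differed from gene to gene. KO-ITD had the highest retroviral mean for Tek, Procr, Cd34, Esam and Gata2, and WT-GFP the highest for Hlf. For Procr, Cd34, Esam and Gata2 every retroviral group overlapped the next in order, so neighbouring ranks do not separate beyond their spread. Groups farther apart in the order overlapped too, with exceptions for Gata2 and Esam that rest on few counts. For Gata2 all KO-ITD libraries (0.36 CPM or more) lay above all KO-GFP and WT-GFP libraries (0.28 CPM or less). Gata2 had 3 counts in KO-ITD replicate 3, 3 in KO-GFP replicate 2 and 7 in WT-GFP replicate 1. For Esam both WT-GFP libraries (0.28 CPM, 7 counts each) lay above both KO-GFP libraries (0.25 CPM or less, 0 and 5 counts). Such counts are too few to tell levels of single libraries apart. For Tek the 4 KO-ITD libraries (0.12 to 0.97 CPM) lay above the WT-ITD libraries (0.00 to 0.10 CPM), on 1, 4, 1 and 8 counts against 2, 0 and 0 counts, too few to tell levels of single libraries apart, and the groups from WT-ITD down overlapped. For Hlf the order was WT-GFP, KO-GFP, KO-ITD and WT-ITD, in which WT-GFP and KO-GFP overlapped and the others did not. KO-ITD and WT-ITD had at most 3 Hlf counts in any library, too few to tell levels of single libraries apart. KI-het replicate 2 and KI-KO were as low as retroviral libraries for Procr (0.79 and 0.27 CPM). So were both KI-het libraries for Tek (0.06 and 0.21 CPM). The Mecom sum of every knock-in leukemia (0.13 to 0.50 CPM) also lay within the retroviral range (0.00 to 1.46 CPM). Esam in KI-het replicate 2 and KI-KO (0.72 and 3.27 CPM) lay below only KO-ITD replicate 4 (4.13 CPM) of the retroviral libraries.

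KO-ITD replicate 4 stood apart from the other 3 KO-ITD leukemias. Cd34 had levels of 2.93, 0.49, 1.92 and 26.3 CPM in replicates 1 to 4 of KO-ITD, against 0.69, 0.12 and 1.66 CPM in WT-ITD, 0.64 and 1.67 CPM in KO-GFP and 1.36 and 0.32 CPM in WT-GFP. Replicate 4 was far above every other retroviral library, and the other 3 were close to or inside the range of the other groups. Procr was at 0.13, 0.16, 0.60 and 4.37 CPM in KO-ITD, against 0.10, 0.00 and 1.04 CPM in WT-ITD. Esam was at 0.38, 0.55, 0.24 and 4.13 CPM in KO-ITD, against 0.20, 0.06 and 0.49 CPM in WT-ITD. Markers of several other cell types were highest in the same library. Its endothelial, stromal, and monocyte and macrophage markers summed to 418, 2950 and 3930 CPM, and those of the other KO-ITD leukemias to 111 to 161, 148 to 700 and 198 to 351 CPM. Granulocyte markers were instead highest in replicate 1 (1110 CPM, against 372 CPM in replicate 4), and erythroid and thymic epithelial markers in replicate 3 (1490 and 336 CPM, against 1290 and 129 CPM in replicate 4). Cdh5 was at 7.04 CPM in replicate 4 and at 0.385 to 0.962 CPM in the other 3, and the part of such cells in the levels of the stem cell genes was not tested.

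**Figure D4:**
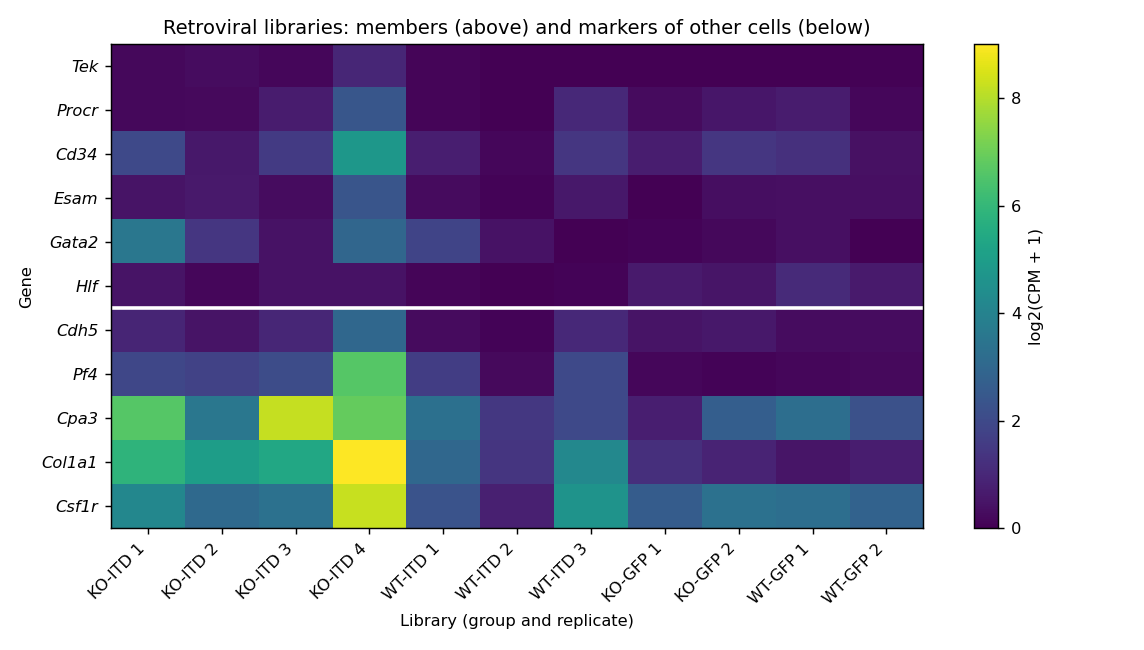
Levels as log2(CPM + 1) of 6 stem cell genes (above the line) and of 1 marker each of endothelium (Cdh5), platelets (Pf4), mast cells (Cpa3), stroma (Col1a1) and monocytes (Csf1r) in the 11 retroviral libraries. KO-ITD replicate 4 had the highest Tek, Procr, Cd34 and Esam and also the highest Cdh5 (7.04 CPM), Pf4 and Col1a1 (513 CPM).

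FLT3-ITD with Dnmt3a deleted was compared with its GFP control. Tek and Gata2 were called higher in KO-ITD than in KO-GFP (edgeR adjusted p 0.0423 and 0.0498), 2 of 7 genes, where 9.8% of all genes were called higher. Tek rests on 1, 4, 1 and 8 counts in KO-ITD and none in KO-GFP, which makes it at least 3.88-fold higher when KO-GFP is set to 3 counts in all. Gata2 was at 10.8, 1.70, 0.36 and 6.92 CPM in KO-ITD, against 0.06 and 0.15 CPM in KO-GFP (log2 fold change 5.34 ± 1.77). All 4 leukemias were above both GFP libraries, but KO-ITD replicate 3 had only 3 Gata2 counts, as did KO-GFP replicate 2. Both calls were lost without KO-ITD replicate 4 (adjusted p 0.0621 for Tek and 0.0644 for Gata2), without KO-GFP replicate 1 (0.239 and 0.297) and without KO-GFP replicate 2 (0.176 and 0.192), and that of Gata2 without KO-ITD replicate 1 (0.0884). Mast cell and basophil markers, genes of cells that use Gata2, summed to 431, 51.9, 387 and 337 CPM in KO-ITD replicates 1 to 4, and to 3.71 and 14.6 CPM in KO-GFP. The markers did not run together: in replicates 1 to 4 Cpa3 was at 97.7, 10.9, 299 and 116 CPM, Mcpt8 at 9.67, 4.51, 0.842 and 1.09 CPM and Ms4a2 at 8.65, 0.989, 0.00 and 0.850 CPM. Gata2, Mcpt8 and Ms4a2 all had their highest level in replicate 1 and their lowest in replicate 3, where Cpa3 was highest. The part of such cells was not tested.

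No gene of the 7 was called between KO-ITD and WT-ITD, the comparison of Dnmt3a loss among FLT3-ITD leukemias, where 0.49% of all genes were called in either direction. Tek and Cd34 had an unadjusted p under 0.05 there (log2 fold change 3.23 ± 1.25 for Cd34, edgeR adjusted p 0.192). The Cd34 value rests on KO-ITD replicate 4, without which it was 0.99 (adjusted p 0.636). For Tek the 14 counts in KO-ITD against 2 in WT-ITD gave a ratio of 8.69 (95% exact counting interval 2.00 to 78.8). That interval covers counting error only and not the spread between libraries, and the edgeR adjusted p was 0.189. Of the 14 counts, 8 came from KO-ITD replicate 4, without which the Tek log2 fold change was 1.97 (edgeR adjusted p 0.371). Gata2 was at 2.56, 0.37 and 0.00 CPM in WT-ITD replicates 1 to 3, the first and second inside the range of KO-ITD and the third below it. Between KO-GFP and WT-GFP none of the 7 was called, nor was any other gene (0% by edgeR; 74 genes had an unadjusted p under 0.05, and DESeq2 called 12 and limma voom 0). None of the 7 had an unadjusted p under 0.05 in that comparison. The interaction of Dnmt3a loss and FLT3-ITD, the difference between the effects of FLT3-ITD with and without Dnmt3a, called 0% of genes by edgeR (838 at an unadjusted p under 0.05; 80 by DESeq2 and 0 by limma voom) and none of the 7.

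Between WT-ITD and WT-GFP none of the 7 genes was called by edgeR, against 2.24% of all genes in either direction, and 1 had an unadjusted p under 0.05. That gene was Hlf, at 0.10, 0.00 and 0.06 CPM in WT-ITD, against 1.08 and 0.57 CPM in WT-GFP. The groups did not overlap, and the 3 counts in WT-ITD against 41 in WT-GFP made Hlf 14.6-fold lower (95% exact counting interval 4.65 to 73.5). That interval covers counting error only and not the spread between libraries. Hlf missed the threshold in edgeR (adjusted p 0.167) and passed it in DESeq2 (0.0243). Hlf was at 0.38, 0.11, 0.36 and 0.36 CPM in KO-ITD, against 0.57 and 0.41 CPM in KO-GFP (log2 fold change -0.81 ± 1.18, edgeR adjusted p 0.632). KO-ITD and KO-GFP did not overlap, but on 3, 2, 3 and 3 counts against 9 and 8, too few to tell levels of single libraries apart. The WT-GFP value of Hlf is under 1.1 CPM and far below the 147 CPM or more of KI-pre.

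The other stem and progenitor genes were called in both directions in the retroviral leukemias. In KO-ITD against KO-GFP 7 of 50 were higher and 2 lower, with a median log2 fold change of 1.72 beside 0.19 over all genes, of which 9.8% were called higher and 9.85% lower. Cd82, a tetraspanin gene, averaged 614 ± 267 CPM in KO-ITD (n = 4) and 64.5 ± 18.3 CPM in KO-GFP (n = 2; adjusted p 0.00565). Lyl1, a hematopoietic helix-loop-helix factor gene, averaged 19.1 ± 10.5 CPM in KO-ITD and 2.52 ± 0.308 CPM in KO-GFP (adjusted p 0.0128). Lmo2 and Tal1, whose products act with LYL1 in early blood cells and also in erythroid cells, were called higher as well. Erythroid markers, 8 of 12 called higher, summed to 479 to 1490 CPM in KO-ITD against 14.9 and 139 CPM in KO-GFP, and stromal markers, 11 of 12 called higher, to 148 to 2950 CPM in KO-ITD against 6.99 and 7.92 CPM in KO-GFP. The part of such cells was not tested. Egr1, an immediate early gene, was lower, at 8.38 ± 11.1 CPM in KO-ITD and 119 ± 2.37 CPM in KO-GFP (adjusted p 0.0143). In WT-ITD against WT-GFP 2 were higher (Cd82 and Hoxb4) and 2 lower (Egr1 and Hoxa5), beside 2.24% of all genes called in either direction. None was called between KO-ITD and WT-ITD (0.49% of all genes in either direction) or between KO-GFP and WT-GFP (0%). Of the ligands and partners, 4 of 23 were higher (Gata1, Tal1, Lyl1 and Nfil3) and 1 lower (Crkl) in KO-ITD against KO-GFP, and none was called in WT-ITD against WT-GFP. Nfil3 was also higher in KO-ITD than in WT-ITD (25.9 ± 5.33 against 3.86 ± 0.990 CPM, log2 fold change 2.74 ± 0.31, adjusted p 0.0036), the only listed partner called there.

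Of the 7 genes, 3 had at least 10 counts in 3 or more retroviral libraries, and the genes most like them over the 11 libraries were sought by Pearson's r of log2 CPM, given as a description. The genes most like Gata2 included the mast cell genes Fcer1a (r = 0.972) and Tpsb2 (r = 0.953), and r was 0.925 and 0.875 without KO-ITD replicates 1 and 4. Cd34 was most like Pla2g7 (0.974), Speg (0.969) and Ank2 (0.968), with 0.905, 0.930 and 0.871 without KO-ITD replicate 4 and WT-ITD replicate 2. Procr was most like Nostrin (0.965), Elf3 (0.958) and Tnnt2 (0.958), with 0.890, 0.846 and 0.883 without KO-ITD replicate 4 and WT-ITD replicate 3. The libraries share these low counts and their depth differences, and the values describe likeness within these libraries.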

How the data were processed

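The main values were estimated counts per gene, deposited by the authors in 1 table for all 17 libraries and not scaled for depth. The 4 WT-GFP samples are 2 libraries with 2 technical runs each, which share a column. The submitters' processing notes name the build mm9, TopHat2 2.0.10, Cufflinks 2.1.1 (with no version in the later records) and Cuffdiff 2.1.1 or 2.2.1. The counting step and the use of strand were not stated in those sources. Estimated counts per transcript were deposited in the same form and used for Mecom and Cd34. FPKM values, which the authors deposited per library for 9 retroviral libraries, were used as an alternative on log2(FPKM + 1) and log2(FPKM + 0.1).

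Counts were rounded to whole numbers and analysed in R 4.3.3 with edgeR 4.0.16: filterByExpr (15508 genes kept), TMM scaling, and 1 quasi-likelihood fit with 1 mean per group. Contrasts were tested two-sided with Benjamini-Hochberg adjustment over all genes and a threshold of 0.05. SEs came from the F statistic, and CPM were scaled by TMM. A group with no count is given as a bound at 3 counts over the group, and intervals cover counting error only. DESeq2 1.42.0, limma 3.58.1 (voom), other scalings and filters, subsets of libraries and left-out replicates were alternatives. Code was tested on simulated data. No 2 libraries of a group agreed within sampling noise, and the replicate numbers did not pair the samples.

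Named genes were all 7 members, up to 4 called genes per list and comparison by smallest adjusted p with at least 1 CPM in the higher group, the first listed markers, and for likeness the 3 genes with the highest r. A few genes that this rule names are not reported here. The members and lists were chosen with earlier results of these data known. Angpt1, Runx1, Tal1, Lyl1 and Prdm16 stand on both gene lists. Summed thymic epithelial markers were 30.7 to 336 CPM, erythroid markers 14.9 to 1490 CPM and double-positive thymocyte markers 26.3 to 17800 CPM over the 17 libraries.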

Additional observations from a re-analysis of the deposited data

Results flagged for a closer look

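KO-ITD replicate 4 lay apart from the other 3 KO-ITD leukemias for 4 genes, where its gap to the next library took up most of the range of the group. The gap made up 0.883 of the range for Tek, 0.888 for Procr, 0.906 for Cd34 and 0.920 for Esam, above Dixon's 95% critical value for 4 samples. For Hlf the lowest library, KO-ITD replicate 2, lay apart (0.923), on levels of 0.11 to 0.38 CPM. These levels are 3, 2, 3 and 3 counts in replicates 1 to 4, too few to tell single libraries apart. Replicate 2 was also the deepest, with a total of 18620967 counts against 7660541 to 8597919 in the others. Chance flags about 1 group in 20, and 6 genes were tested in this way. The markers of other cells in KO-ITD replicate 4 are given beside its levels above, and their part was not tested.

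The 15-exon Mecom transcript, which the Mecom row of the gene table leaves out, had 338 estimated counts in the lowest KI-pre library and at most 12 in any library outside KI-pre.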

How the results depend on the processing

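The number of the 7 genes called was the reported one under another scaling (RLE size factors) in every comparison. Without the filter on low counts it was 0 for KO-ITD against KO-GFP, where 2 were reported, and 2 for the 3 knock-in leukemias against KI-pre, where 3 were reported. DESeq2 called 1 gene for WT-ITD against WT-GFP (0 reported), 2 for KI-KO against KI-pre (0 reported) and 3 for KO-ITD against KO-GFP (2 reported). It called 2 for the knock-in leukemias (3 reported) and 5 for KI-pre against WT-GFP (7 reported). Of all 15508 genes, DESeq2 called 1425 for WT-ITD against WT-GFP (347 by edgeR) and 5015 for KO-ITD against KO-GFP (3047 by edgeR). It called 2973 for the knock-in leukemias (1455 by edgeR) and 6083 for KI-pre against WT-GFP (4942 by edgeR). Cd34 had no DESeq2 adjusted p-value in the knock-in comparisons or in KI-pre against WT-GFP, so it could not be called there. With limma voom the count was 1 for KO-ITD against KO-GFP (2 reported), 2 for KI-het against KI-pre (1 reported), 3 for KI-KO against KI-pre and 6 for the 3 knock-in leukemias against KI-pre (3 reported). Of all genes, limma voom called 3160 for KO-ITD against KO-GFP, 711 for KI-het (775 by edgeR) and 1625 for the knock-in leukemias. On FPKM with limma, at either pseudocount, the number of the 7 genes called was 1 for WT-ITD against WT-GFP and 0 for KO-ITD against KO-GFP. Of 16283 genes, 821 and 800 were called in the first and 2202 and 2244 in the second, at pseudocounts 1 and 0.1. With the compared groups fitted alone it was 0 for KO-ITD against KO-GFP, 6 for KI-KO against KI-pre and 1 for the knock-in leukemias. With only the libraries of each model it was 0 for KO-ITD against KO-GFP, 0 for KI-het and 1 for the knock-in leukemias. KO-ITD against KO-GFP gave 0 with thymus libraries alone and 0 with the first submission alone. In these subsets of retroviral libraries fewer of the 7 genes passed the filter (2 with the compared groups, 3 with the retroviral libraries, 3 with thymus and 4 with the first submission), and Tek was in none of them, so its call was not tested there. With both Mecom transcripts summed, KI-het against KI-pre gave 2. The cause of these differences was not tested.

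Leaving out 1 library at a time gave 0 to 2 genes for KO-ITD against KO-GFP, 0 to 1 for KI-het against KI-pre, 0 to 2 for the knock-in leukemias and 4 to 7 for KI-pre against WT-GFP. The log2 fold change of Cd34 in KI-het ran from -2.75 without replicate 1 to 0.01 without replicate 2. The replicate numbers did not pair the samples. Same-numbered deviations correlated at -0.224 to 0.369, and with a replicate block the count was 1 for KO-ITD against KO-GFP, 0 for KI-het and 1 for the knock-in leukemias. A block with the KO-GFP numbers crossed, tried because the correlation of KO-GFP and WT-GFP was -0.224, called 0 genes.

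Of 21 retroviral fold changes near the detection limit, which are not printed above, 11 changed sign under at least 1 alternative, in 35 of 342 fits. The depth of these libraries does not give a direction for them. The comparison of the 3 knock-in leukemias, the Mecom sum and the crossed block were chosen after the data had been seen.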
